A study of Mus musculus with 6 samples.

Results

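The antioxidant and glutathione genes form a family of 54 genes among the 12894 genes measured by bulk RNA sequencing in newborn mouse epidermis. They were taken by name: every superoxide dismutase (Sod), glutathione peroxidase (Gpx), peroxiredoxin (Prdx), glutathione S-transferase (Gst), microsomal glutathione transferase (Mgst) and thioredoxin-named gene (Txn), together with Hmox1, Gclc, Gclm, Srxn1, Gsr, Gss, Cat, Nfe2l2 and Keap1. Nqo1 also belongs to the rule and is not analysed here. Epidermis was separated from the dermis of C57BL/6 mice at postnatal day 0. The study asked what changes in this tissue when Hnrnpu, which encodes a nuclear RNA-binding protein, is deleted with a loxP-Cre system. There were 3 libraries from animals labelled Hnrnpu knockout and 3 from controls, of which control 1 was labelled wild type and controls 2 and 3 carried a genotype label read here as heterozygous. No source used here gives the Cre driver, the deleted part of the gene, or which control animals carried Cre or the loxP allele. Values are normalized counts per gene as the authors deposited them, and differences are log2(value + 1) changes of the labelled knockouts over the controls with their standard error (SE), tested by limma with adjustment over all 12872 genes tested. A gene was called where its adjusted p was under 0.05.

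Several facts of the libraries bear on all values. An estimated 6460000 to 8760000 reads were assigned to genes in the labelled knockouts and 8280000 to 9120000 in the controls. The normalized counts of all genes summed to 8191409, 10987666 and 8469679 in labelled knockouts 1 to 3. In controls 1 to 3 they summed to 6850663, 7328810 and 7453638, so every labelled knockout had a larger total than every control. The targeted gene did not check the labels: Hnrnpu had 1565, 1342 and 1036 normalized counts in the labelled knockouts, against 1450, 1318 and 1160 in the controls (99.4% of the control level, 95% interval 72.5 to 136.2%, limma adjusted p = 0.976). Every direction below therefore rests on the labels. Xist, the RNA of the silenced X chromosome in females, had 1.87, 5656 and 4758 normalized counts in labelled knockouts 1 to 3, against at most 3.27 in a control. Labelled knockout 1 was thus the only library of its group with the male pattern of the controls. In labelled knockouts 2 and 3 a difference of sex and one of label cannot be told apart. The fit with labelled knockout 1 alone, given below, compares libraries of the male pattern only. Of 10 defining keratinocyte genes, 2 were called higher (Krt14 and Dsg3) and 0 lower (3 lower with equal library totals, 2 with quantile normalization and 2 in a fit that pairs the animals with adjacent numbers in their titles as a block), and Krt1, Krt10, Krt5 and Krt14 had at least 3208 normalized counts in every library. Of the genes listed as markers of other cells, 9 of 9 melanocyte genes, 3 of 7 dermal fibroblast genes and 3 of 4 tested neutrophil and mast cell genes were called higher, 1 fibroblast gene was called lower, and 2 of 13 macrophage and Langerhans cell genes were called in each direction. Of the remaining lists, 1 of 2 T cell genes was called lower, 2 of 10 hair follicle and sebaceous genes were called in each direction, 0 of 1 endothelial gene was called, and 0 adipocyte and 0 muscle genes were measured. These counts are to be set against the 17.7% of all genes tested that were called higher and the 15.9% called lower. The 2 higher macrophage genes became 0 without any 1 library other than labelled knockout 3 (1 without it), the 2 lower ones became 0 without any 1 control or without labelled knockout 1, and the T cell gene was not called without control 2. The neutrophil and mast cell genes measured summed to 1152, 8435 and 444.7 normalized counts in labelled knockouts 1 to 3 and to 67.9 to 131.4 in the controls. The 3 called genes, S100a8, S100a9 and Kit, held most of the sums in the labelled knockouts. The sums therefore rest on these 3 genes and do not measure the number of neutrophils or mast cells. Csf3r, not called, had 0.93, 158.2 and 17.7 normalized counts in labelled knockouts 1 to 3, against 6.04, 4.43 and 1.64 in the controls. Ngp, not tested, had 0.93, 142.9 and 0, against 0 in every control. The part of these cells in the results below was not tested. In bulk tissue, fewer cells of a type and less RNA per cell cannot be told apart.

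Cells remove superoxide with superoxide dismutases, which yield hydrogen peroxide, and remove peroxide with catalase, glutathione peroxidases and peroxiredoxins. Glutathione and thioredoxin supply the reducing power, and glutathione transferases couple glutathione to reactive compounds. Much of this system is under the transcription factor NRF2 (Nfe2l2), which the adaptor KEAP1 marks for degradation until oxidants or electrophiles modify KEAP1. In the epidermis NRF2 is known for the response to ultraviolet light and to reactive chemicals.

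Of the 54 members, 13 were higher and 15 were lower in the labelled knockouts, so that 51.9% were called, against 33.6% of all genes tested (17.7% of all genes higher and 15.9% lower). At least 2-fold changes were found for 10 of the members called higher and 14 of those called lower, while 12.0% of all genes were called higher and 11.8% called lower by that much. The median log2 change was −0.10 over the members, beside −0.022 over all genes. The values of the groups did not overlap for 35 members, 14 higher and 21 lower, and did not overlap for 50.8% of all genes (25.8% higher and 25.0% lower). With labelled knockout 1 alone against the controls, 7 members were higher and 15 lower, beside 1265 higher and 1220 lower of all 12872 genes. In that fit the spread comes from the controls only, and the lone library is assumed to vary as they do. Among the 13 members called higher, labelled knockout 2, the shallowest library, had the highest value for 10. Among the 15 called lower, the lowest value was that of labelled knockout 1 for 8, of knockout 2 for 5 and of knockout 3 for 2. The members called higher held the regulator Nfe2l2, the stress-inducible enzymes Hmox1, Txnrd1 and Srxn1, and several thioredoxin-fold proteins. The members called lower held catalase, extracellular superoxide dismutase, the peroxiredoxins Prdx2 and Prdx6 and most of the transferases that were called.

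**Figure D1:**
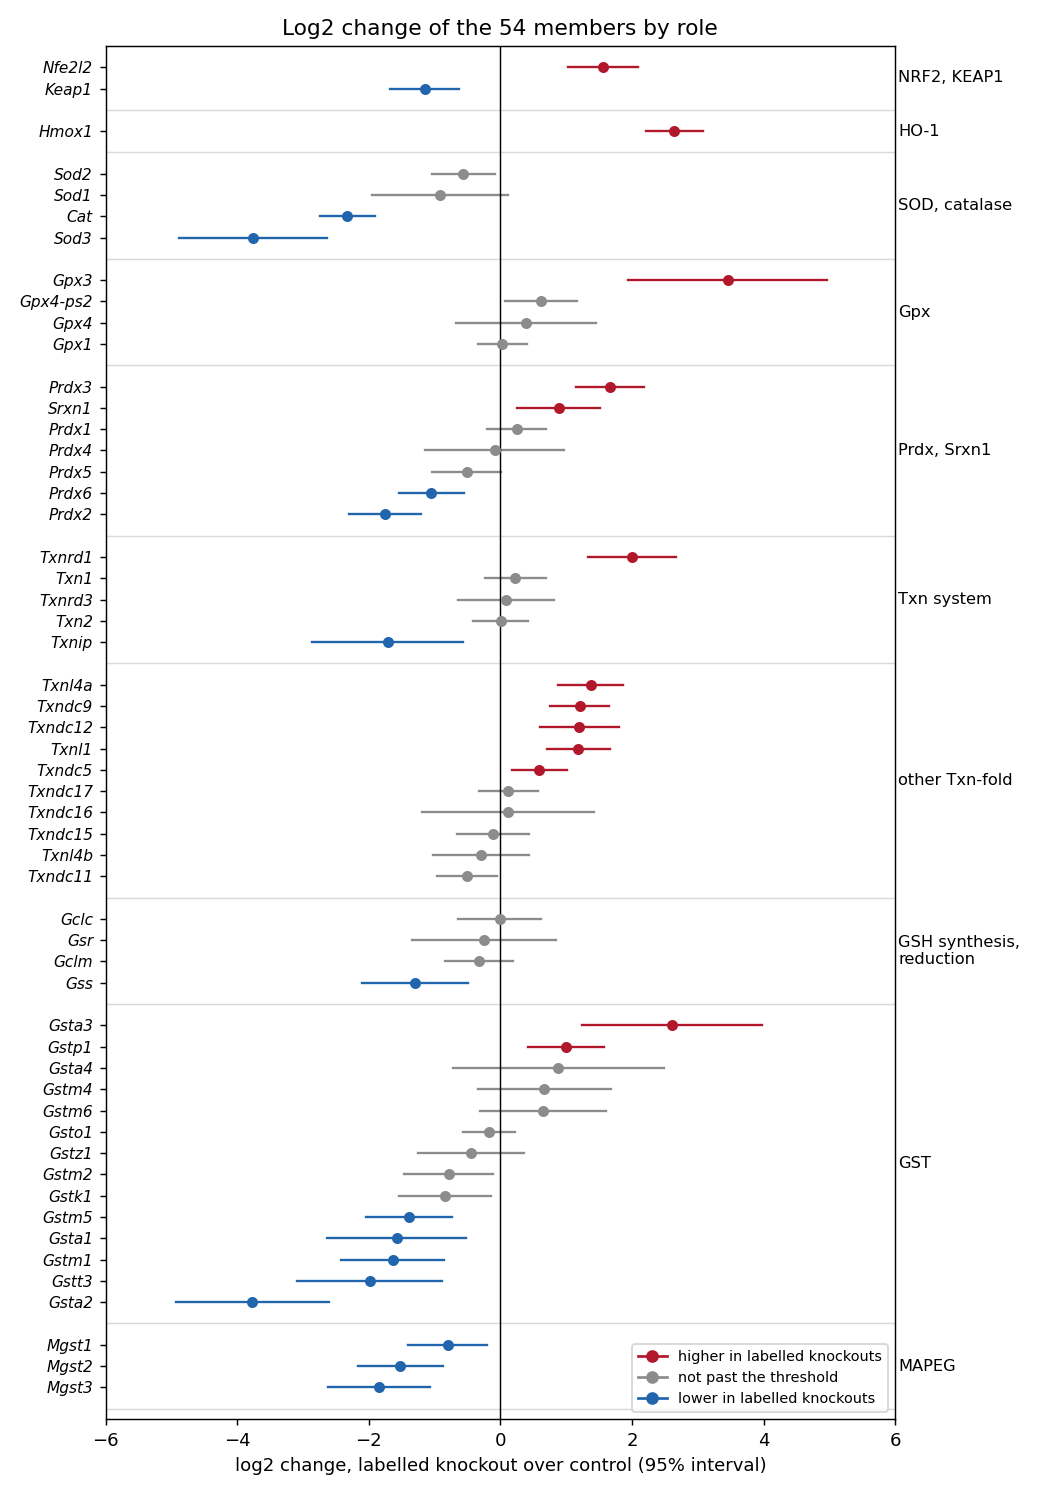
Log2 change of the labelled knockouts over the controls for all 54 members, grouped by role, with points for the limma estimate and bars for its 95% interval (3 and 3 libraries). Red members were called higher (13), blue ones lower (15), and grey ones were not past the threshold (26). The dismutases, catalase and the microsomal transferases lie left of 0, while the thioredoxin-fold proteins that were called lie right of it.

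The regulator and its inhibitor moved in opposite directions. Nfe2l2 (ENSMUSG00000015839, chromosome 2) had 532.7, 760.5 and 492.3 normalized counts in labelled knockouts 1 to 3, against 232.6, 162.0 and 203.5 in controls 1 to 3. All 3 labelled knockouts lay above every control, with a log2 change of 1.56 ± 0.23 (SE, n = 3 and 3, limma adjusted p = 0.00203). Keap1, which encodes the adaptor that presents NRF2 to a ubiquitin ligase, had 131.7, 89.9 and 137.4 normalized counts in the labelled knockouts, against 272.3, 235.3 and 282.8 in the controls. The groups were apart, and Keap1 changed by −1.15 ± 0.23 (limma adjusted p = 0.00654). The value of Keap1 was a whole number of reads, within 0.05 of a read, in only 1 of the 6 libraries, as when reads are shared between similar or overlapping genes, and its level is uncertain to that extent. NRF2 is controlled mainly at the protein level, which RNA counts do not measure.

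Of the inducible enzymes, Hmox1 had the smallest adjusted p of all members. This gene encodes heme oxygenase, which degrades heme to iron, carbon monoxide and biliverdin. It had 2405, 3437 and 2639 normalized counts in the labelled knockouts, against 403.2, 458.7 and 479.0 in the controls. The lowest labelled knockout was well above the highest control, and the log2 change was 2.65 ± 0.19 (limma adjusted p = 9.61e-05). Hmox1 is also high in macrophages, whose 13 measured markers summed to 392.6, 2008 and 691.8 normalized counts in the labelled knockouts and to 1125, 999.9 and 674.6 in the controls, groups that overlap. Their part in the Hmox1 result was not tested.

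**Figure D2:**
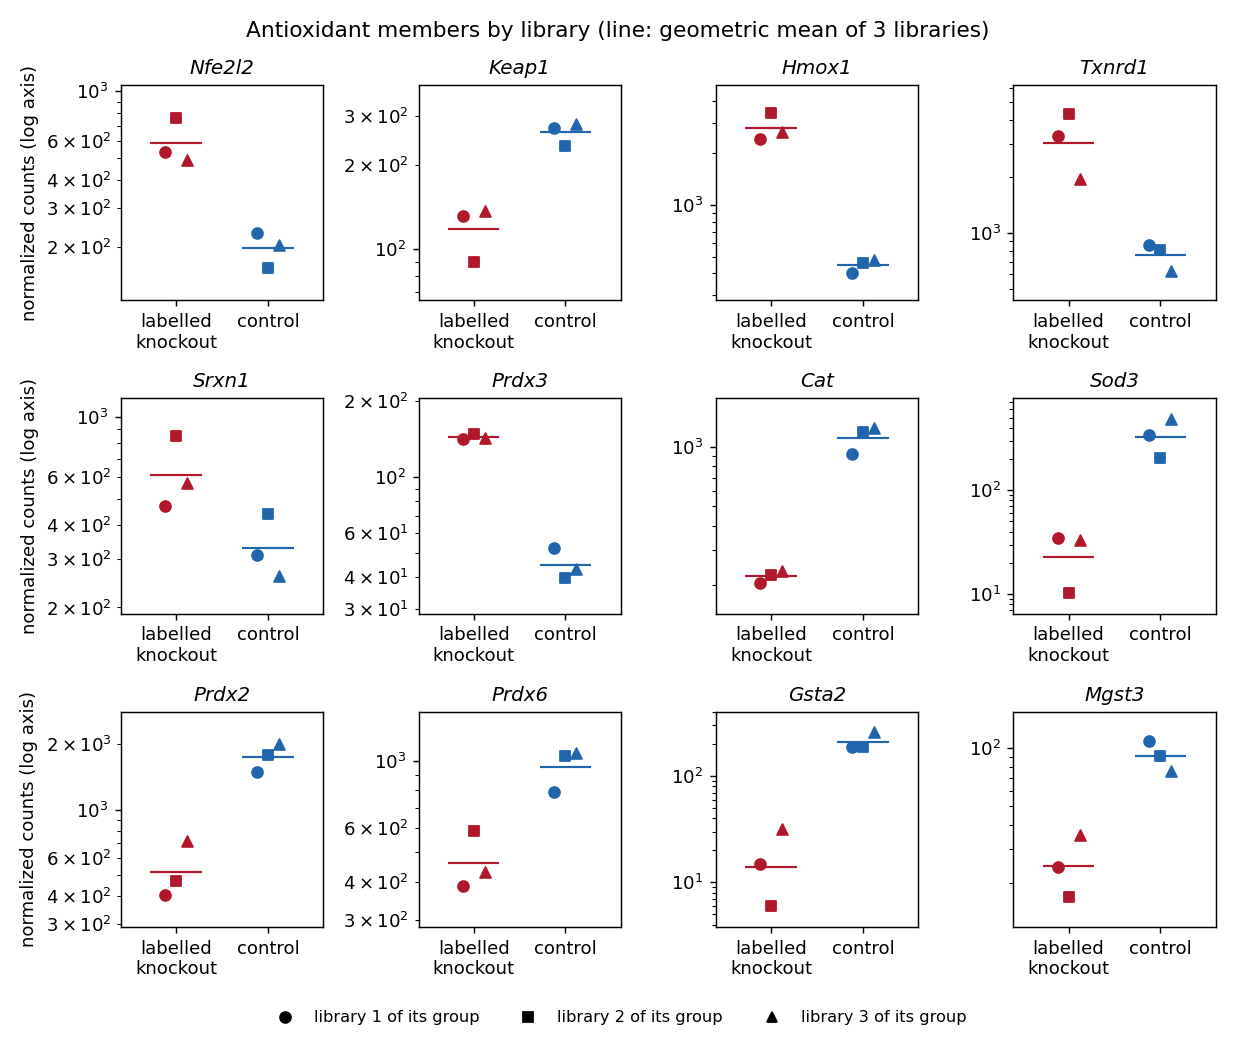
Normalized counts (log axis) of 12 members in each library, labelled knockouts left of controls, with the geometric mean of 3 libraries as a line and the symbol giving the library's number within its group. In each of the 12 panels the groups do not overlap. Nfe2l2, Hmox1, Txnrd1, Srxn1 and Prdx3 lie higher in the labelled knockouts, and Keap1, Cat, Sod3, Prdx2, Prdx6, Gsta2 and Mgst3 lie lower.

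The promoters of these genes were read for the core of the antioxidant response element, the site that NRF2 binds with small MAF proteins. RefSeq promoter sequences (GRCm38.p6, 250 bases before to 50 after the start) were matched for 45 of the 54 members, and not for Hmox1, Gclc, Gsr, Prdx6, Sod3, Gsta4, Txnl1, Txnl4a or Gpx4-ps2. The letters TGACNNNGC stood on either strand in the promoters of 11 of the 45 members (24.4%), against 16.7% of the tested genes with a promoter in the table. By call, the match was found for 5 of 10 members called higher, 2 of 13 called lower and 4 of 22 not past the threshold. The windows below show the match in capitals with its flanks in lower case, in the direction of the gene, for members called higher (Nfe2l2, Txnrd1, Gsta3), not past the threshold (Gclm, Prdx1) and called lower (Gstm5, Mgst1), because the same letters stand before genes of every outcome.
Nfe2l2, chr2:75704870-75704913, minus strand, match 240 bases before the start: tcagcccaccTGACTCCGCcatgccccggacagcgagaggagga
Txnrd1, chr10:82859089-82859147, plus strand, match 92 bases before the start: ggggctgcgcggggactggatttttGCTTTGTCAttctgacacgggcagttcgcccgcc
Gsta3, chr1:21240439-21240497, plus strand, match 121 bases before the start: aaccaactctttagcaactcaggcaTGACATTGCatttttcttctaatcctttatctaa
Gclm, chr3:122245398-122245456, plus strand, match 134 bases before the start: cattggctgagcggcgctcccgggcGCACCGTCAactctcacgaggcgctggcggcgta
Prdx1, chr4:116685441-116685499, plus strand, match 133 bases before the start: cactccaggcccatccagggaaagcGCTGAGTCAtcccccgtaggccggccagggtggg
Gstm5, chr3:107895787-107895845, plus strand, match 42 bases before the start: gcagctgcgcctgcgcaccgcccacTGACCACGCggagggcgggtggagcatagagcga
Mgst1, chr6:138140446-138140504, plus strand, match 56 bases before the start: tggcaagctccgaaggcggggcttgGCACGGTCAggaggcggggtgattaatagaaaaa
Capitals that begin with GC are the match read on the other strand. Some genes have several promoters in the table, 3 for Txnrd1 and 2 for Mgst1, and a gene was counted where any held the match. A second motif, TGATGCAA, which C/EBP and ATF proteins share, was in 0 of the 45 members' promoters and in 0.819% of those of tested genes. The matches are letters in a window, and binding was not measured.

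In the thioredoxin system, the reductase was higher while thioredoxin itself was not called. Txnrd1, the cytosolic thioredoxin reductase and a selenoprotein, had 3289, 4327 and 1941 normalized counts in the labelled knockouts, against 860.8, 810.2 and 620.4 in the controls. The groups did not overlap, and Txnrd1 was higher, with a log2 change of 2.0 ± 0.29 (limma adjusted p = 0.00187). Txn1, the cytosolic thioredoxin, had 443.9, 658.4 and 554.4 normalized counts in the labelled knockouts, against 431.9, 436.5 and 535.4 in the controls, and these ranges overlap. Its log2 change was 0.23 (95% interval −0.24 to 0.69), that of the mitochondrial thioredoxin Txn2 was 0.0025 (−0.42 to 0.43), and that of the reductase Txnrd3 was 0.085 (−0.65 to 0.82). Txnip, a glucose-responsive protein that binds and inhibits thioredoxin, had 451.4, 1174 and 1399 normalized counts in the labelled knockouts, against 2037, 5809 and 2192 in the controls. It was lower by −1.71 ± 0.50 (limma adjusted p = 0.0313), with every labelled knockout under every control. This call was lost without control 2, whose value is the highest (−1.22, adjusted p = 0.0942), without control 3 (−1.93, 0.0506), without labelled knockout 1 (−1.21, 0.0757) and without the mean-variance trend (0.0631). With labelled knockout 1 alone Txnip changed by −2.71.

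The 10 other members named for thioredoxin include proteins that do other work, and 5 of them were higher and 0 lower. Txnl4a, a small protein of the spliceosome, had 331.9, 242.2 and 243.2 normalized counts in the labelled knockouts, against 117.7, 98.3 and 96.1 in the controls. Txndc9, which binds chaperonins, had 778.6, 1138 and 806.9, against 385.7, 360.9 and 416.3 in the controls. Txnl1, which is associated with the proteasome, had 702.8, 1075 and 897.1, against 335.2, 441.9 and 389.1 in the controls. For each of the 3 genes, the labelled knockouts were all above the controls. Their log2 changes were 1.37 ± 0.22, 1.21 ± 0.20 and 1.18 ± 0.21 (limma adjusted p = 0.00249, 0.00302 and 0.00428). Txndc12, an endoplasmic reticulum protein, had 131.8, 158.2 and 98.7 normalized counts in the labelled knockouts, against 60.4, 60.2 and 45.0 in the controls, and was higher by 1.2 ± 0.27 (limma adjusted p = 0.0105). With labelled knockout 1 alone, the calls of Txnl1 and Txndc12 were lost (adjusted p = 0.0541 and 0.0584). Txndc5, a disulfide isomerase of the same compartment, had a smaller change of 0.59 ± 0.18 (limma adjusted p = 0.0373). The Txndc5 call was lost without any 1 library (adjusted p = 0.0538 to 0.133), without the trend (0.059), with array weights (0.0585), with equal library totals (0.331) and with labelled knockout 1 alone (0.192). Txndc11, Txndc15, Txndc16, Txndc17 and Txnl4b were not called, with log2 changes between −0.51 and 0.12. With equal library totals Txndc11 was called (−0.85, adjusted p = 0.0332). Values of Txnl4a and Txndc9 were whole numbers of reads in 1 of 6 libraries each, so their reads may be shared with other genes.

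Superoxide dismutases and catalase were lower as far as they were called. Cat, the peroxisomal catalase, had 203.7, 224.6 and 236.2 normalized counts in the labelled knockouts, against 924.9, 1197 and 1242 in the controls. The labelled knockouts lay close together and far under the controls, with a log2 change of −2.33 ± 0.18, or 5.01-fold lower (limma adjusted p = 1.28e-04). Sod3, the secreted extracellular dismutase, had 34.6, 10.2 and 33.3 normalized counts in the labelled knockouts, against 340.5, 205.4 and 486.4 in the controls. The lowest value, that of labelled knockout 2, came from about 6 reads, and the groups did not overlap (log2 change −3.77 ± 0.49, limma adjusted p = 0.00113). The 7 fibroblast genes measured, which mark cells known to make Sod3, summed to 572.2 to 834.5 normalized counts in the labelled knockouts and to 1366 to 2783 in the controls. Postn made up most of the control sum, while Col1a1, Col1a2 and Col3a1 were higher in the labelled knockouts, and the part of fibroblasts in the Sod3 result was not tested. Sod2, the mitochondrial dismutase, had 248.1, 389.4 and 326.1 normalized counts in the labelled knockouts, against 431.7, 498.9 and 473.5 in the controls. These values do not overlap, but Sod2 was not called (−0.56 ± 0.21, limma adjusted p = 0.0669). It was called with adjacent animal numbers as a block (adjusted p = 0.0264), without labelled knockout 2 (0.0355), with labelled knockout 1 alone (0.0334), with array weights (0.0301), with quantile normalization (0.0305) and with equal library totals (0.00771). Sod1, the cytosolic dismutase, was counted at 14.4 to 16.4 normalized counts in the labelled knockouts and 17.6 to 48.1 in the controls and was not called (−0.92 ± 0.45, adjusted p = 0.146). Sod1 and Sod2 values were whole numbers of reads in 1 and 0 of the 6 libraries, and the counts of both are uncertain.

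Red blood cells are rich in catalase and Prdx2, so their markers were read beside these genes. The 3 globin genes measured of 12 erythroid markers summed to 0.93, 695.2 and 9.98 normalized counts in the labelled knockouts, against 13.6, 112.0 and 55.3 in the controls. The groups overlap, with the highest and the lowest sum both among the labelled knockouts. The part of red blood cells in the Cat and Prdx2 results was not tested.

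The peroxiredoxins, thiol peroxidases that differ by compartment, went in opposite directions. Prdx2, a cytosolic one, had 407.3, 468.5 and 721.3 normalized counts in the labelled knockouts, against 1486, 1784 and 2006 in the controls. Prdx6, which also acts on phospholipid peroxides, had 387.8, 585.3 and 430.2, against 788.3, 1036 and 1061 in the controls. Both were lower with no overlap of the groups, with log2 changes of −1.76 ± 0.24 and −1.05 ± 0.22 (limma adjusted p = 0.00142 and 0.0078). The Prdx2 values stood for an estimated 435.8, 275.4 and 650.5 reads in labelled knockouts 1 to 3. These are not whole numbers, so Prdx2 reads may be shared with other genes and its level is uncertain to that extent. Prdx3, the mitochondrial peroxiredoxin, had 141.1, 148.0 and 143.0 normalized counts in the labelled knockouts, against 52.1, 39.9 and 43.3 in the controls. The labelled knockouts agreed closely, all above the controls, and Prdx3 was higher by 1.66 ± 0.23 (limma adjusted p = 0.00132). Srxn1, sulfiredoxin, restores peroxiredoxins that peroxide has overoxidized. It had 470.1, 849.0 and 574.4 normalized counts in the labelled knockouts, against 312.6, 439.2 and 261.6 in the controls. The lowest labelled knockout was only just above the highest control, and the change was 0.89 ± 0.28 (limma adjusted p = 0.0377). It no longer passed without control 1 (adjusted p = 0.104), without control 3 (0.127), without labelled knockout 2 or 3 (0.0975 and 0.0534), with labelled knockout 1 alone (0.312), without the trend (0.0695), with array weights (0.0845) and with equal library totals (0.103). Prdx1, Prdx4 and Prdx5 were not called, at log2 changes of 0.25, −0.088 and −0.51. Prdx5 was called with adjacent animal numbers as a block (adjusted p = 0.0327), with labelled knockout 1 alone (0.0263), with quantile normalization (0.016) and with equal library totals (0.0184). Summed over the 6 genes, peroxiredoxin normalized counts were 2871, 4190 and 4145 in the labelled knockouts and 5032, 5753 and 6101 in the controls.

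Glutathione peroxidases reduce peroxides with glutathione. Of 4 members with that name, which include the pseudogene Gpx4-ps2, 1 was called. Gpx3, the secreted plasma form, had 43.0, 25.5 and 34.4 normalized counts in the labelled knockouts, against 5.29, 0.89 and 1.63 in the controls. The control values stand for 7, 1 and 2 reads, so the fold is poorly known although the groups are far apart. Gpx3 was higher by 3.46 ± 0.66 (limma adjusted p = 0.00583), or by 2.39 with a pseudocount of 5. Gpx1, the widespread cytosolic form, had 661.4, 732.5 and 599.3 normalized counts in the labelled knockouts, against 620.7, 624.9 and 699.7 in the controls. Its values were whole numbers of reads in 1 of 6 libraries, as were those of Prdx1 and Gclm. The groups overlap, and the log2 change was 0.032 (95% interval −0.35 to 0.41, limma adjusted p = 0.894). Gpx4, the selenoenzyme that reduces lipid peroxides in membranes, was counted at 13.7, 37.0 and 34.4 in the labelled knockouts and 18, 23.8 and 17.7 in the controls. Its pseudogene Gpx4-ps2 was counted at 150.7, 143.4 and 116.4 in the labelled knockouts and 106.6, 91.3 and 71.4 in the controls. Neither was called (limma adjusted p = 0.543 and 0.0781), though Gpx4-ps2 was with adjacent animal numbers as a block (0.0357). Both had whole numbers of reads in only 1 of 6 libraries, and the files do not tell how many Gpx4 reads were given to the pseudogene.

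Of the 4 genes of glutathione synthesis and reduction, 0 were called higher and 1 lower. Gclc, the catalytic subunit of the enzyme that limits glutathione synthesis, had 137.4, 129.3 and 96.5 normalized counts in the labelled knockouts, against 118.5, 162.9 and 90.7 in the controls. Gclm, its modifier subunit, had 131.6, 89.5 and 92.0, against 127.0, 136.1 and 124.2 in the controls. Gsr, glutathione reductase, had 69.2, 166.7 and 36.6, against 99.7, 80.6 and 89.9 in the controls. The groups overlap for all 3 genes and none was called, with log2 changes of −0.011 (95% interval −0.64 to 0.62), −0.33 (−0.85 to 0.20) and −0.25 (−1.35 to 0.85; limma adjusted p = 0.979, 0.294 and 0.709). Gss, glutathione synthetase, had 40.2, 23.8 and 17.7 normalized counts in the labelled knockouts, against 67.2, 64.6 and 62.1 in the controls. It was lower with no overlap, by −1.29 ± 0.35 (limma adjusted p = 0.0235). The Gss call was lost without any 1 control (adjusted p = 0.0781, 0.0774 and 0.069), without labelled knockout 2 (0.0527) and with labelled knockout 1 alone (−0.67, adjusted p = 0.185).

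The glutathione S-transferases were counted for 14 members, of which 5 were lower, 2 higher and 7 not past the threshold. The greatest fall was in the alpha class. Gsta2 had 14.9, 5.98 and 31.5 normalized counts in the labelled knockouts, against 186.5, 189.3 and 257.5 in the controls, a change of −3.77 ± 0.51 (limma adjusted p = 0.0013). Its lowest value, that of labelled knockout 2, came from about 3.5 reads. Gsta1 had 22.5, 54.4 and 81.5, against 144.5, 98.7 and 194.3 in the controls (−1.57 ± 0.46, adjusted p = 0.0315). Both were lower without overlap, but both lie on chromosome 9, are closely similar in sequence and had whole numbers of reads in 1 of 6 libraries each, so their reads are not securely told apart. Gsta3, on chromosome 1, went the other way, at 26.2, 23.8 and 44.4 normalized counts in the labelled knockouts, against 2.27, 3.54 and 8.17 in the controls. Its control values stand for 3, 4 and 10 reads, and its change was 2.60 ± 0.60 (limma adjusted p = 0.0125), or 1.92 with a pseudocount of 5. With labelled knockout 1 alone the Gsta3 call was lost (adjusted p = 0.0822). The Gsta1 call was lost without control 1 (adjusted p = 0.086), without control 3 (0.11), without labelled knockout 1 or 2 (0.0578 and 0.0564) and without the trend (0.0543), and its change was −2.59 with labelled knockout 1 alone. Gsta4, which acts on lipid aldehydes, had 32.7, 74.9 and 8.87 normalized counts in the labelled knockouts, against 13.6, 12.4 and 19.6 in the controls, and was not called. Without labelled knockout 3 it was called higher (1.67, adjusted p = 0.0351).

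The mu class, whose genes lie together on chromosome 3, held 2 members called lower and 0 higher. Gstm1 had 16.8, 27.2 and 21.1 normalized counts in the labelled knockouts, against 87.2, 72.6 and 50.5 in the controls. Gstm5 had 67.3, 78.3 and 116.4, against 168.9, 232.8 and 284.5 in the controls. Both were lower without overlap, by −1.64 ± 0.34 and −1.39 ± 0.29 (limma adjusted p = 0.00829 and 0.00794). Gstm2 was not called (−0.79, adjusted p = 0.0694), but was with adjacent animal numbers as a block (0.0378) and with equal library totals (0.0391). Its values were whole numbers of reads in 0 of 6 libraries, and Gstm4 and Gstm6 were not called at 0.67 and 0.65. Gstt3 of the theta class had 9.35, 5.10 and 16.6 normalized counts in the labelled knockouts, against 43.8, 40.7 and 36 in the controls, without overlap (−1.99 ± 0.48, limma adjusted p = 0.0155). Its values in the labelled knockouts stand for 10, 3 and 15 reads. Gstt3 no longer passed without control 1 (adjusted p = 0.0607) or without control 2 (0.0614). Gstp1 of the pi class was higher, at 105.9, 107.4 and 81.0 normalized counts in the labelled knockouts, against 57.4, 42.5 and 46.2 in the controls. Its change was 0.99 ± 0.25 (limma adjusted p = 0.0187). Gstp1 no longer passed without control 2 (adjusted p = 0.0727), without control 3 (0.0638), without labelled knockout 1 or 2 (0.0512 and 0.0503), with labelled knockout 1 alone (0.0795) and with equal library totals (0.103), and its reads were whole in 1 of 6 libraries. Gstk1, Gstz1 and Gsto1 were not called, at log2 changes of −0.84, −0.45 and −0.18. Gstk1 was called without the trend (adjusted p = 0.0264) and with equal library totals (0.0341), and Gsto1 with quantile normalization (0.0263). Gsto1 had most of the counts of the 14 genes, 1743 to 2331 in the labelled knockouts and 2079 to 2451 in the controls. The sum over the 14 genes was 2226, 2599 and 2943 normalized counts in the labelled knockouts and 3045, 3267 and 3576 in the controls.

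All 3 microsomal transferases, membrane proteins of a separate family that includes enzymes of leukotriene synthesis, were lower without overlap. Mgst2 had 66.4, 86.8 and 125.3 normalized counts in the labelled knockouts, against 203.9, 294.0 and 289.4 in the controls. Mgst3 had 24.3, 17 and 35.5, against 108.0, 91.2 and 76.0 in the controls. These genes had log2 changes of −1.52 ± 0.28 and −1.85 ± 0.34 (limma adjusted p = 0.00509 and 0.00486). Mgst1 had 46.7, 57.9 and 37.7, against 86.1, 88.6 and 72.8 in the controls, with a log2 change of −0.80 ± 0.27 (limma adjusted p = 0.0472). The Mgst1 call was lost without any 1 control (adjusted p = 0.135, 0.148 and 0.0899), without labelled knockout 1 or 3 (0.0833 and 0.0988), with labelled knockout 1 alone (0.128) and with quantile normalization (0.0558).

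Of the 28 called members, 17 were called under each of the 17 other settings tried, 7 of them higher (Nfe2l2, Hmox1, Txnrd1, Prdx3, Gpx3, Txndc9 and Txnl4a) and 10 lower (Keap1, Cat, Sod3, Prdx2, Prdx6, Gsta2, Gstm1, Gstm5, Mgst2 and Mgst3). No called member changed direction under any of these settings. For all 28 the groups did not overlap, so leaving out libraries and other pseudocounts, filters or limma settings could not reverse a direction. Only equal library totals and quantile normalization could have done so.

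**Figure D3:**
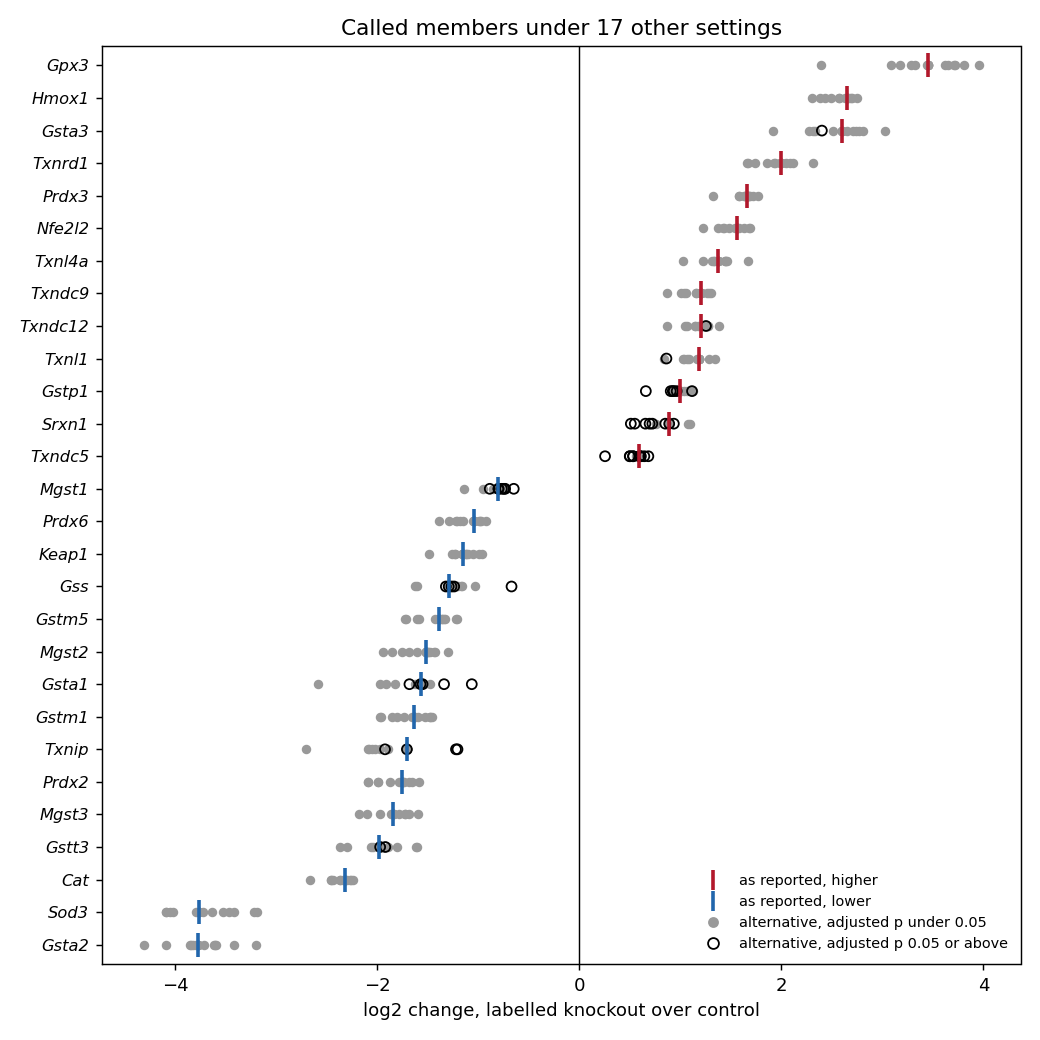
Log2 change of the 28 called members as reported (bars, red higher and blue lower in the labelled knockouts) and under 17 other settings (filled grey where still past the adjusted p of 0.05, open where not). The open points gather at Txndc5, Srxn1, Gstp1, Mgst1, Gss, Gsta1 and Txnip, with 1 or 2 at Gsta3, Txndc12, Txnl1 and Gstt3. No point crosses 0, and only equal library totals or quantile normalization could have made one cross.

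The genes around the family were read as lists, each to be set against the 17.7% of all genes called higher and the 15.9% called lower. Of the genes that import cystine or supply and turn over glutathione, 5 of 14 were higher and 3 lower. Slc7a11, the cystine transporter, had 4065, 5211 and 2995 normalized counts in the labelled knockouts, against 468.2, 198.4 and 211.0 in the controls (3.88 ± 0.35, limma adjusted p = 2.22e-04). Its heavy chain Slc3a2, the glutamine transporter Slc1a5 and Cth, which makes cysteine from cystathionine, were higher by 2.04 ± 0.23, 3.11 ± 0.36 and 6.58 ± 0.53 (adjusted p = 6.12e-04, 6.74e-04 and 1.40e-04). Cth had only 15.1, 2.66 and 11.4 normalized counts in controls 1 to 3, and the value of control 2 stood for about 3 reads. Its fold is therefore poorly known. Without control 2, Cth changed by 5.93, and with a pseudocount of 5 by 6.00. With labelled knockout 1 alone Slc1a5 changed by 3.82. The 3 lower genes became 1 without any 1 control or without labelled knockout 2. Of genes that supply NADPH, 5 of 18 were higher and 6 lower, beside 17.7% and 15.9% of all genes. The higher ones included the mitochondrial folate enzymes Mthfd2 (5.44 ± 0.27), Aldh1l2 (4.0 ± 0.19) and Mthfd1l (3.68 ± 0.37; limma adjusted p = 1.82e-05, 1.82e-05 and 3.48e-04). The lower ones included the isocitrate dehydrogenase Idh2 (−1.15 ± 0.17, adjusted p = 0.00217), and 3 were lower without control 1.

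Other textbook targets of NRF2 were called in both directions: 5 of 28 were higher and 6 lower, close to the 17.7% and 15.9% of all genes, with a median log2 change of 0.034 beside −0.022 over all genes. Slc7a11 is also one of the higher ones, with the glycine transporter Slc6a9 (3.70 ± 0.21) and the epoxide hydrolase Ephx1 (3.66 ± 0.41; limma adjusted p = 3.79e-05 and 6.12e-04), while the transporter Abcc3 was lower by −3.85 ± 0.30 (1.19e-04). Of 16 regulators around NRF2 and KEAP1, 6 were higher and 2 lower. The small MAF partners Mafk, Maff and Mafg were higher by 1.45 ± 0.18, 1.82 ± 0.34 and 1.11 ± 0.21, and Atf4, the factor of the integrated stress response, by 1.99 ± 0.25 (limma adjusted p = 9.74e-04, 0.00529, 0.00517 and 9.34e-04). The Maff call was lost with labelled knockout 1 alone (1.13, adjusted p = 0.0887), and 1 regulator was lower without control 1, control 2, labelled knockout 2 or labelled knockout 3. In the list of NADPH oxidases and partners, which make superoxide or peroxide, 4 of 9 were higher and 0 lower. Duox1, the peroxide-making oxidase of epithelia, had 1515, 2113 and 921.4 normalized counts in the labelled knockouts, against 87.6, 91.2 and 26.2 in the controls. It and its maturation factor Duoxa1 were higher by 4.57 ± 0.49 and 3.65 ± 0.47 (limma adjusted p = 4.97e-04 and 0.001). The GTPase Rac1, an oxidase partner, and xanthine dehydrogenase Xdh were higher by 0.96 and 1.08 (adjusted p = 0.0153 and 0.0164). Neither passed without control 3 (0.0606 and 0.0629), and Rac1 did not without control 1 (0.0516) or with labelled knockout 1 alone (0.0847), nor Xdh with equal library totals (0.0537).

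**Figure D4:**
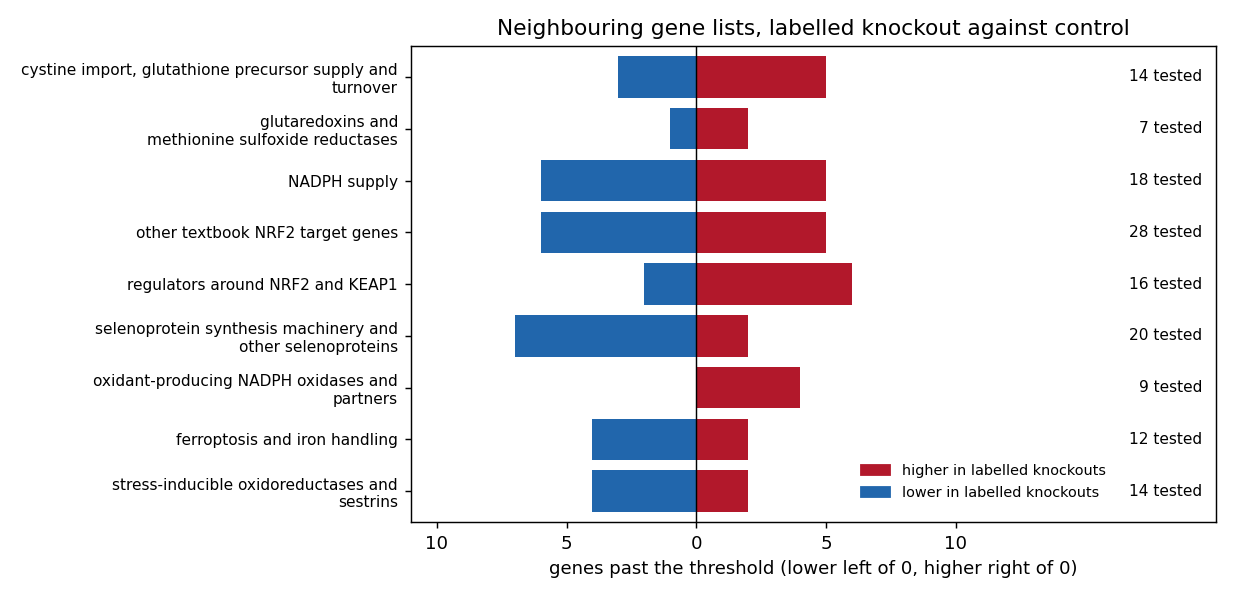
Genes past the threshold in 9 lists around the family, with those lower in the labelled knockouts drawn left of 0 and those higher drawn right of 0, beside the number tested. The lists of NADPH supply and other NRF2 targets hold calls of both directions in similar number, and the oxidase list holds 4 higher and 0 lower.

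Selenium enters Gpx and Txnrd proteins through a dedicated machinery, and of 20 genes of that machinery or other selenoproteins 7 were lower and 2 higher, beside 15.9% of all genes lower and 17.7% higher. Selenop, the plasma selenium carrier, had 309.3, 314.7 and 354.8 normalized counts in the labelled knockouts, against 1329, 1668 and 1747 in the controls (−2.27 ± 0.18, limma adjusted p = 1.25e-04). Sepsecs, which makes selenocysteine on its transfer RNA, was lower by −1.19 ± 0.23, and Selenoh and Selenoi by −1.38 ± 0.25 and −1.02 ± 0.19 (adjusted p = 0.00614, 0.00423 and 0.00516). Without any 1 control 4 were lower, and the 2 higher genes became 0 without control 1 and 1 without control 2, control 3, labelled knockout 2 or labelled knockout 3. Of 12 genes of ferroptosis and iron handling, 2 were higher and 4 lower. Acsl4, which loads polyunsaturated fatty acids, and the iron exporter Slc40a1 were lower by −2.44 ± 0.31 and −2.33 ± 0.35, the ferritin receptor Ncoa4 by −0.87, and the acyltransferase Lpcat3 was higher by 1.61 ± 0.31 (limma adjusted p = 9.74e-04, 0.00203, 0.0243 and 0.00582). The Ncoa4 call was lost without control 2, control 3, labelled knockout 1 or labelled knockout 2 and with labelled knockout 1 alone (adjusted p = 0.0608, 0.0809, 0.0549, 0.0614 and 0.133). In this list 2 were lower without control 2 or 3 or without labelled knockout 1 or 2, and 1 was higher without control 1 or labelled knockout 2. Among 14 stress-inducible oxidoreductases and sestrins, 2 were higher and 4 lower, with Sesn2 at 2.71 ± 0.24 and Qsox1 at 1.75 ± 0.25, and Sesn1 and Sesn3 at −2.41 ± 0.30 and −2.35 ± 0.25 (limma adjusted p = 2.08e-04, 0.00168, 9.63e-04 and 4.91e-04). With adjacent animal numbers as a block, 5 of this list were higher and 5 lower. Without labelled knockout 3, 5 were higher, and 2 were lower without any 1 control or without labelled knockout 1 or 2. Of 7 glutaredoxins and methionine sulfoxide reductases, 2 were higher and 1 lower. Msrb3 changed by 1.40 ± 0.36, Glrx3 by 0.88 ± 0.24 and Glrx2 by −0.56 ± 0.18 (limma adjusted p = 0.0185, 0.0223 and 0.04). The Glrx2 call was lost without any 1 library (adjusted p = 0.0586 to 0.134), that of Glrx3 without control 1, control 3 or labelled knockout 3 (0.0794, 0.0541 and 0.0517), and that of Msrb3 without control 1 (0.0609). Both Glrx3 and Msrb3 also missed the threshold with equal library totals (0.12 and 0.059) and with labelled knockout 1 alone (0.207 and 0.105).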

How the data were processed

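RNA-seq libraries of newborn epidermis were compared, 3 labelled Hnrnpu knockout and 3 controls, each title carrying its own number, read as an animal number. Nothing else says that the animals were separate, so p-values measure only the spread between these samples. The authors deposited 1 table of normalized counts per gene (signal). Tools named in the submitters' processing notes are Partek 9.0.20.0202 and TopHat2 2.1.0, with build mm39. Normalization, counting and strand settings: not given in the sources used here. Ensembl IDs were matched to symbols for 12771 of 12894. From the values, 1 read was worth 0.755 to 1.70 normalized counts, and 80.1 to 83.0% of values of up to 20 reads were whole within 0.02 of a read, too few to recover reads, so tests for counts were left out. Of the 48 members under 2000 reads in every library, 31 were whole within 0.05 of a read in all 6, and 14 in at most 2. A floor was set at 3 reads, which is 2.27 to 5.10 normalized counts.

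Values were tested as log2(value + 1) by limma 3.58.1 in R 4.3.3 (trend, Benjamini-Hochberg adjustment, genes above 1 in at least 3 libraries, threshold 0.05), after testing on simulated data. Intervals are at 95%. Members and lists were chosen with earlier results of these data known. Values in every library are given for members called with a log2 change of at least 1 and for 9 core genes. Of each other list, up to 4 genes are named by smallest adjusted p. Adjacent animal numbers (216 with 217, 241 with 242, 250 with 251) were taken as pairs only in the replicate block. The reported fit leaves them unpaired. Within these pairs, deviations from group means had correlations of 0.37, 0.23 and 0.36. Other combinations of a labelled knockout and a control had correlations of −0.28 to −0.07. The labels state no litter. Chromosomes and promoters come from GRCm38 annotation, another build than mm39. Alternatives were other pseudocounts, filters, scalings and limma settings, the replicate block, leaving out each library, and labelled knockout 1 alone. Nqo1 is not analysed here.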

Additional observations from a re-analysis of the deposited data

How the results depend on the processing

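The number of members called stayed within 1.5 times of 13 higher and 15 lower under 16 of the 17 settings. The exception was labelled knockout 1 alone against the controls, with 7 higher. Leaving out 1 library gave 10 to 12 higher and 11 to 14 lower members, a member median of −0.21 to −0.019, and 1512 to 2342 higher and 1121 to 2167 lower genes in all. With equal library totals the median of all genes moved to −0.36 and that of members to −0.43, with 10 members higher and 20 lower, beside 1440 higher and 3065 lower of all 12872 genes. The member median was −0.16 with array weights. With labelled knockout 1 alone 1265 of all genes were higher and 1220 lower. The replicate block on adjacent animal numbers gave 14 higher and 18 lower members, beside 2952 higher and 2829 lower of all 12872 genes, and added the calls of Sod2, Prdx5, Gstm2 and Gpx4-ps2. It changed no other call among the members. In the lists it gave 7 higher and 8 lower NRF2 targets, 8 higher and 2 lower regulators, and 5 higher and 5 lower oxidoreductases and sestrins.

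Direction changed for 16 members, none of them called, and the cause was not tested. With equal library totals the log2 changes were −0.25 for Txnrd3, −0.34 for Txn2, −0.22 for Txndc17, −0.21 for Txndc16, −0.11 for Txn1, −0.091 for Prdx1 and −0.31 for Gpx1. With quantile normalization they were −0.070 for Txn2, 0.059 for Prdx4, 0.016 for Gclc and −0.14 for Gpx1. With array weights Txn2 was at −0.044 and the Hnrnpu level at 0.018. With labelled knockout 1 alone they were −0.21 for Txn2, 0.028 for Gstz1, 0.050 for Txndc15, −0.082 for Gstm4, 0.028 for Gclm, −0.069 for Txn1, −0.068 for Prdx1, 0.19 for Gclc, −0.12 for Gstm6, −0.49 for Gpx4 and 0.26 for Hnrnpu. Over the fits that left out 1 library, Txnrd3 ranged between −0.16 and 0.42, Txn2 between −0.12 and 0.11, Txndc16 between −0.49 and 0.61, Prdx4 between −0.49 and 0.17, Gsr between −0.82 and 0.26, Gclc between −0.21 and 0.20, Gpx1 between −0.040 and 0.10, and Hnrnpu between −0.15 and 0.15.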
